A study of Canis lupus familiaris with 18 samples.

Results

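The genes described here stood at least 2-fold higher after low and after high light in MDCKI cells carrying bPAC. In parental MDCKI cells they stood little higher, or lower, after light. They were 5 of the 32220 gene IDs in the tables. MDCKI is an epithelial line from dog kidney, and bPAC is an adenylyl cyclase of bacterial origin, switched on by blue light, that produces cyclic AMP. The series holds 10 libraries of cells with bPAC, 3 dark, 4 low light and 3 high light, and 8 of parental MDCKI cells without bPAC, 3 dark, 3 low light and 2 high light. All cells were kept in phenol red-free medium with 0.5% serum and were lit for 2 h (or not at all) starting 16 h after plating. The labels do not say whether the line with bPAC is 1 clone. Nor do they say that replicates were grown separately, so the p-values reflect library-to-library spread that may be only technical.

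Cyclic AMP is the second messenger through which hormones such as vasopressin act on kidney epithelium. It binds the regulatory subunits of protein kinase A and frees the catalytic subunits, which phosphorylate transcription factors of the CREB family, among many other targets. Phosphodiesterases break it down again. Parental cells lack the light-driven cyclase, so they show what light alone goes with. The tables name genes by Ensembl dog IDs without symbols, and 0 of these IDs matched the reference table of gene names, so the 5 genes are given by ID, with no function or sequence, and the epithelial identity of the cells was not checked against marker genes. The level of bPAC itself was not analysed here.

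Members were chosen on measured levels. The level of a gene is its CPM, its reads scaled to a common total of 1000000 gene reads. The light ratio of a gene is the log2 of its mean CPM in lit libraries plus 1 over its mean CPM in dark libraries plus 1. A member had a ratio of at least 1 at both doses in cells with bPAC, ratios below 0.5 at both doses in parental cells, and a mean of at least 10 CPM in its highest group. A block of 37 consecutive IDs and 4 single IDs were left out by ID, and 1 ID of each kind met all of these conditions. Because the rule fixed the response to light in both lines, those responses are described below by their values. How many members edgeR called on them is given only as a description that supports nothing about the members.

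Few genes separated the lines in this way. Of 5969 genes with at least 10 CPM in their highest group, 373 reached a ratio of 1 at low light in cells with bPAC, 117 did so at high light, and 62 did so at both doses. In 47 of these 62 genes, or 75.8%, the parental ratio was also at least 0.5 at both doses. Another 5 passed 0.5 in parental cells at low light alone and 3 at high light alone. The 7 genes left comprised the 5 members and the 2 left out by ID. A further 70 genes kept to the parental limits and reached a ratio of 1 at low light but not at high light in cells with bPAC, and 20 did so at high light but not at low light.

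**Figure D1:**
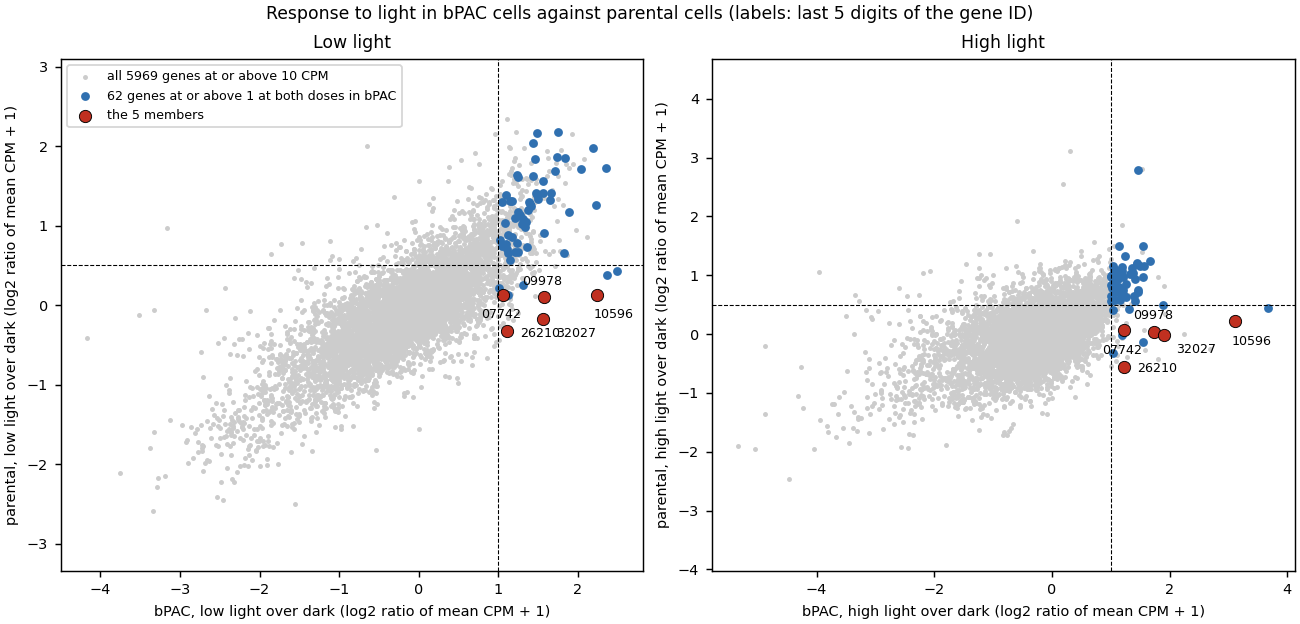
Each point is a gene with at least 10 CPM in its highest group, placed by its light ratio in bPAC cells (x axis) and in parental cells (y axis), both as log2 ratios of mean CPM plus 1, at low light (left) and high light (right). Blue points are the 62 genes at or above a ratio of 1 at both doses in bPAC cells, most of them above the parental limit of 0.5 (dashed), and red points are the 5 members, which lie below it.

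The libraries held between 2638511 and 9610144 reads in genes. Library bPAC low light 4 stood apart from the other bPAC libraries on the second principal component of all tested genes (18.6% of the variance). It scored 6.13 there, while the other bPAC libraries scored from -40.4 to -7.15 and the parental ones from 5.90 to 34.1. On the first component (37.5%) it scored 67.2, above bPAC low light 1 at 59.8 and bPAC high light 2 at 53.2. The other bPAC libraries ran down to -52.0 there, and the parental ones from -47.9 to 20.4. The low light values below are given with and without low light 4 where it moves them most. Reads with several equally good alignments were 41.7% to 44.4% of the total in bPAC high light and 38.5% to 39.9% in bPAC dark libraries. In parental high light libraries they were 38.9% to 44.2%. The 10 most abundant genes took 17.2% to 21.2% of gene reads in bPAC high light and 14.2% to 15.2% in bPAC dark libraries. The part of these shares in the levels below was not tested.

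The strongest ratios belonged to ENSCAFG00000010596. In cells with bPAC it stood at 14.6, 14.6 and 8.79 CPM in the dark, at 99.1, 73.0, 65.9 and 17.1 CPM in low light, and at 126, 114 and 113 CPM in high light. In parental cells it stood at 13.1, 5.14 and 9.43 CPM in the dark, 7.40, 11.2 and 12.0 CPM in low light, and 12.3 and 9.49 CPM in high light. Every lit bPAC library lay above every dark one and above all 8 parental libraries, but low light 4 did so by little, at 17.1 CPM against a highest dark value of 14.6 CPM. The ratio was 2.24 at low light and 3.12 at high light in cells with bPAC, against 0.13 and 0.22 in parental cells. Without low light 4 the low light mean was 79.3 ± 17.5 CPM (SD, n = 3) in place of 63.8 ± 34.2 CPM (SD, n = 4), and the ratio was 2.55. The high light libraries were close together, at 118 ± 7.06 CPM (SD, n = 3).

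ENSCAFG00000032027 was the most variable member. In cells with bPAC it stood at 46.7, 32.5 and 62.4 CPM in the dark, at 82.5, 198, 274 and 12.4 CPM in low light, and at 175, 116 and 246 CPM in high light. In parental cells it stood at 115, 67.4 and 55.9 CPM in the dark, 55.0, 76.2 and 78.9 CPM in low light, and 63.7 and 92.6 CPM in high light. The 12.4 CPM of low light 4 was the lowest value in all 18 libraries, below every dark library, while the other 3 low light libraries lay above all 3 dark ones. The bPAC ratio was 1.57 at low light, 1.95 without low light 4, and 1.90 at high light. The parental ratios were -0.18 and -0.02.

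ENSCAFG00000009978 had levels close to those of ENSCAFG00000032027 and varied less. In cells with bPAC it stood at 48.5, 50.3 and 42.3 CPM in the dark, at 128, 139.6, 198 and 102 CPM in low light, and at 131, 132 and 217 CPM in high light. In parental cells it stood at 77.4, 65.3 and 73.8 CPM in the dark, 58.0, 73.7 and 101 CPM in low light, and 61.2 and 86.9 CPM in high light. Each lit bPAC library exceeded every dark bPAC library and every parental library, the closest pair being bPAC low light 4 and parental low light 3. The bPAC ratios were 1.57 and 1.74, and the parental ratios 0.10 and 0.04. In both this gene and ENSCAFG00000032027 the low light libraries ranked 3, 2, 1 and 4 from high to low, and high light 3 was the highest of its group.

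ENSCAFG00000026210 carried a low level throughout. In cells with bPAC it stood at 9.38, 5.35 and 12.6 CPM in the dark, at 22.9, 16.5, 20.3 and 23.8 CPM in low light, and at 18.9, 29.1 and 20.5 CPM in high light. In parental cells it stood at 10.3, 21.2 and 31.7 CPM in the dark, 11.8, 18.4 and 19.4 CPM in low light, and 11.5 and 16.5 CPM in high light. All lit bPAC libraries lay above the dark bPAC ones, yet their means of 20.9 ± 3.26 CPM (SD, n = 4) and 22.8 ± 5.48 CPM (SD, n = 3) differed from the parental dark mean of 21.05 ± 10.7 CPM (SD, n = 3) by less than the spread between libraries. The bPAC ratios were 1.11 and 1.23, and the parental ones -0.33 and -0.56. This gene was the 1 member for which low light 4 was the highest low light library.

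ENSCAFG00000007742 was the member nearest to the thresholds. In cells with bPAC it stood at 8.69, 4.99 and 6.87 CPM in the dark, at 18.2, 15.7, 13.9 and 13.7 CPM in low light, and at 14.96, 23.1 and 14.02 CPM in high light. In parental cells it stood at 6.66, 9.07 and 10.6 CPM in the dark, 8.58, 8.55 and 12.0 CPM in low light, and 10.03 and 8.49 CPM in high light. The lit bPAC libraries lay above all others. The bPAC ratios were 1.06 and 1.22, and the parental ones 0.13 and 0.07.

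**Figure D2:**
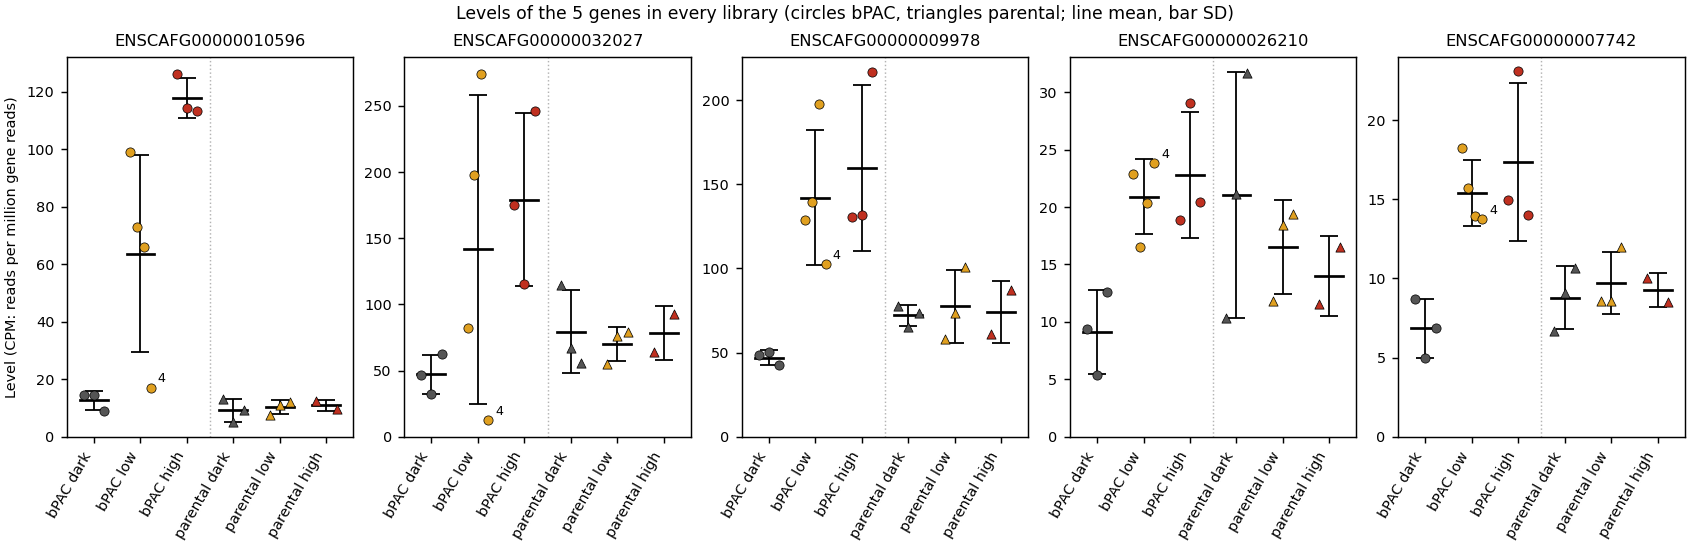
Level in CPM (y axis, from 0, scaled for each gene) of the 5 genes in every library, with bPAC groups on the left (circles) and parental groups on the right (triangles) of each panel and with the group mean (line) and SD (bar). The point marked 4 is library bPAC low light 4, at 17.1 CPM for ENSCAFG00000010596 and 12.4 CPM for ENSCAFG00000032027, far below the other 3 low light libraries of those genes.

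The 2 genes just outside the low light threshold that met every other condition were ENSCAFG00000010222, with a bPAC ratio of 0.86, and ENSCAFG00000010599, with 0.75. Just inside it were ENSCAFG00000007742 at 1.06 and ENSCAFG00000026210 at 1.11. At high light the nearest genes outside were ENSCAFG00000016262 at 0.97 and ENSCAFG00000003583 at 0.95, and the same 2 members were the nearest inside, at 1.22 and 1.23.

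By groups, all 4 low light libraries lay above all 3 dark ones in cells with bPAC for 4 of the 5 members, against 15.8% of the 8530 genes that passed the filter on low counts. Without low light 4 this held for 5 members, against 17.2% of these genes. All high light libraries lay above the dark ones for 5 members, against 10.9%. All 5 members passed the filter. EdgeR's quasi-likelihood test, adjusted over the 8530 genes at 0.05, called 4 members higher at low light (17.2% of genes were called higher) and 5 at high light (12.7% of genes). The member not called at low light was ENSCAFG00000032027. Without low light 4 edgeR called all 5 higher, and 1120 of the 8478 genes then tested. For the interaction, which asks whether light acted differently in the lines, edgeR called 0 members at low light (0.0234% of genes were called higher) and 1 at high light, ENSCAFG00000009978 (0.106% of genes). At low light 4 members had an unadjusted interaction p under 0.05, as had 5.94% of tested genes. For the low light interaction, counting genes in either direction, DESeq2 called 1 member and 0.152% of genes. Counted the same way, limma-voom called 0 members and 0.0352% of genes, and edgeR 0.0352% of genes. The rule chose the members on these same responses, which largely fixed these counts, and nothing is read from them.

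Relative to parental cells at the same dose, every bPAC low light library exceeded every parental low light library for 3 of the 5 members, against 8.16% of the tested genes, and for 4 without low light 4, against 10.2%. At high light this held for all 5, against 12.3% of tested genes. The size of this excess differed widely between members. The level of ENSCAFG00000010596 was 5.78-fold that of parental cells at low light and 10.01-fold at high light, from mean CPM plus 1. For the other 4 members the excess lay between 1.25-fold and 2.01-fold at low light and between 1.59-fold and 2.28-fold at high light. Without low light 4 the low light excess was 7.17-fold for ENSCAFG00000010596, 2.62-fold for ENSCAFG00000032027 and between 1.19-fold and 1.99-fold for the other 3. The rule bears on these levels through its limits, so they are not tested.

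In the dark the members did not stand higher in cells with bPAC as a group. The mean was lower in bPAC than in parental cells for 4 of the 5. The share of all tested genes with a lower mean was not counted. ENSCAFG00000009978 stood at 47.03 ± 4.19 CPM in dark bPAC cells and 72.2 ± 6.22 CPM in dark parental cells (SD, n = 3 each), the 1 member whose dark bPAC libraries all lay below the parental ones, which held for 13.7% of tested genes. ENSCAFG00000026210 stood at 9.12 ± 3.65 and 21.05 ± 10.7 CPM, and ENSCAFG00000032027 at 47.2 ± 14.96 and 79.4 ± 31.2 CPM, in dark bPAC and dark parental cells (SD, n = 3 each), with overlapping libraries. ENSCAFG00000007742 stood at 6.85 ± 1.85 and 8.79 ± 2.01 CPM in dark bPAC and dark parental cells (SD, n = 3 each), with overlapping libraries. ENSCAFG00000010596 alone had the higher mean in dark bPAC cells, at 12.7 ± 3.37 CPM against 9.23 ± 3.99 CPM in dark parental cells (SD, n = 3 each), and its libraries overlapped. A low dark level in cells with bPAC raises the ratio by which members were chosen, so the 4 of 5 is not read as a trait of the members.

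The rule set no limit on high against low light, but it was not independent of that comparison. It set each dose against the dark, and the same lit libraries entered it. The median ratio of all tested genes in bPAC cells was -0.24 at high and -0.08 at low light. A ratio of 1 therefore asked for more at high light, relative to the typical gene. The mean was higher at high than at low light in cells with bPAC for all 5 members, but no member passed edgeR's test between the doses. The share of all tested genes with a higher mean was not counted. The members' median log2 fold change was 0.40, and that of all 8530 tested genes was 0.0031. Nothing is read from this direction or these medians. EdgeR called 0 of 5 members, against 10.2% of the 8530 genes, with 1 member and 26.3% of genes at an unadjusted p under 0.05. DESeq2 and limma-voom called 1 member each, in both cases ENSCAFG00000010596, and 12.02% and 10.5% of all genes, so 1 of 5 is not far from the share over all genes.

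That gene had the largest estimate, 2.16-fold higher at high than at low light (log2 fold change 1.11, SE 0.39, 95% interval 0.28 to 1.94) at an edgeR adjusted p of 0.0818. Its 3 high light libraries all lay above its 4 low light libraries, which held for 4.76% of tested genes and for no other member. The estimate was 0.80 (SE 0.27, edgeR adjusted p = 0.0768) without low light 4. Over the 25 alternatives run for it the adjusted p lay between 0.000528 and 0.218, and 4 of them called it. The adjusted p was 0.000528 in edgeR with no filter on low counts, 0.047 with DESeq2 and 0.0303 with limma-voom. The fit with no filter gave this gene 199776 degrees of freedom, against 16.3 in the main fit, and an SE of 0.24. The gene's own spread between libraries thus had almost no weight in the 0.000528. With edgeR without bPAC low light replicate 1 the adjusted p was 0.0426, and this was the only left-out library with which edgeR called the gene.

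For the other 4 members the log2 fold change between high and low light lay between 0.33 and 0.54, with edgeR adjusted p-values from 0.302 to 0.632. The intervals were wide. That of ENSCAFG00000009978 ran from -0.09 to 0.81 and that of ENSCAFG00000007742 from -0.13 to 0.93. That of ENSCAFG00000026210 ran from -0.34 to 1.01 and that of ENSCAFG00000032027 from -0.82 to 1.91, so a 2-fold difference between the doses lies within these last ones. The estimate for ENSCAFG00000032027, 0.54 with all libraries, ran from 0.16 without low light 4 to 1.24 with limma-voom, and was 1.08 without low light 3.

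In parental cells the same contrast gave 0 calls among the 5 members with edgeR, DESeq2 and limma-voom. These methods called 0.0117%, 0.504% and 0.0117% of the tested genes. With edgeR 0 members had an unadjusted p under 0.05, against 12.7% of tested genes, so 0 of 5 is not far from that share. Log2 fold changes lay between -0.25 and 0.16, with a median of -0.06 against 0.02 for all tested genes. The intervals rest on 2 high light libraries. They ran from -0.61 to 0.48 for ENSCAFG00000009978, the narrowest, and from -1.50 to 1.82 for ENSCAFG00000032027, the widest. Whether the dose acted differently in the lines was not tested.

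**Figure D3:**
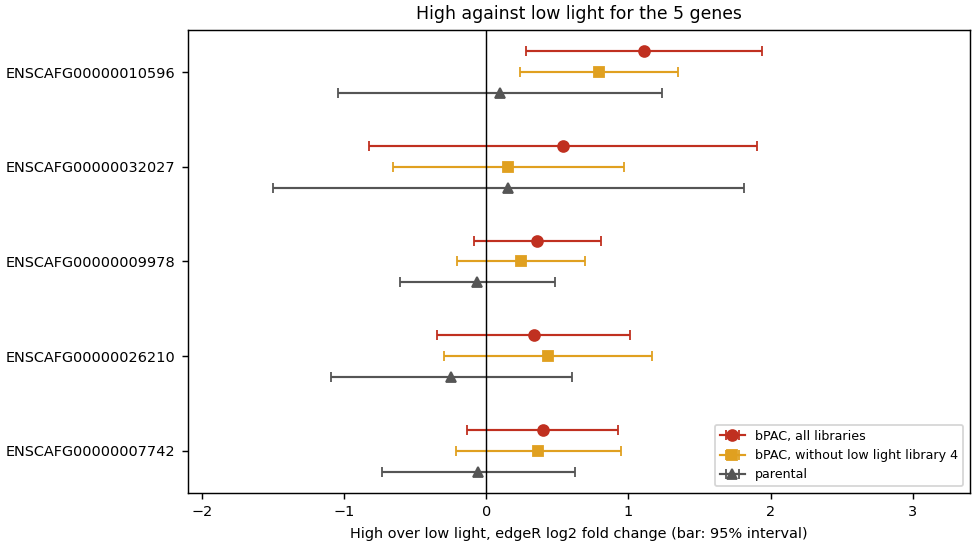
EdgeR log2 fold change of high over low light (x axis) with its 95% interval for the 5 genes, in bPAC cells with all libraries (circles), in bPAC cells without low light library 4 (squares) and in parental cells (triangles). The bPAC interval of ENSCAFG00000010596, from 0.28 to 1.94, lies above 0, and those of the other 4 genes include it.

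The rule set no limit on the spread between libraries of a group, and this spread differed between the members. It is not independent of the rule, since the same libraries gave the group means. A wide spread makes a 2-fold ratio of means easier to reach, so the ranks below only describe the members. EdgeR's biological coefficient of variation, the variation between replicates beyond counting error, was 56.5% for ENSCAFG00000032027, higher than for 97.05% of tested genes. It was 37.2% for ENSCAFG00000010596, above 86.0% of genes, and 29.5% for ENSCAFG00000026210. ENSCAFG00000007742 and ENSCAFG00000009978 had 21.7% and 21.5%, slightly under the median of 23.5% over all tested genes. Genes within 0.25 log2 CPM of each member had medians from 19.998% to 24.1%. For ENSCAFG00000032027 the low light group alone had an SD of 82.4% of its mean, and 52.2% without low light 4.

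Low light 4 was the lowest low light library for 4 of the 5 members, where it was the lowest for 32.2% of all tested genes. The members also differed in depth. ENSCAFG00000007742 had 14 to 107 reads per library, where counting error alone gives a relative SD of 26.7% at the fewest reads. ENSCAFG00000026210 had 15 to 163 reads and ENSCAFG00000010596 17 to 902. ENSCAFG00000009978, with 141 to 935 reads, and ENSCAFG00000032027, with 85 to 1253 reads, had counting errors of at most 8.42% and 10.8%. In bulk RNA, fewer cells expressing a gene and less of its RNA per cell cannot be told apart.

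How firmly each gene belonged was read from 24 repeats of the rule with 1 choice altered, 18 of them leaving out 1 library each. ENSCAFG00000009978 and ENSCAFG00000032027 met the rule in all 24. ENSCAFG00000010596 met it in 23 and failed without parental dark replicate 1, its highest parental library. ENSCAFG00000026210 met it in 22 and ENSCAFG00000007742 in 19, and both failed without bPAC dark replicate 2, where both had their lowest level. The set around them was less stable. Without bPAC dark replicate 1, 33 genes met the rule, among them the 5 members and 28 others. With library sizes scaled by TMM, which corrects for differences in RNA composition, 18 genes did, the 5 members and 13 others. Under the scaling of the rule the median ratio of all tested genes at high light in bPAC cells was -0.24, and after TMM edgeR's median was 0.03, so the rule as stated asks for more than a 2-fold change relative to the typical gene.

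**Figure D4:**
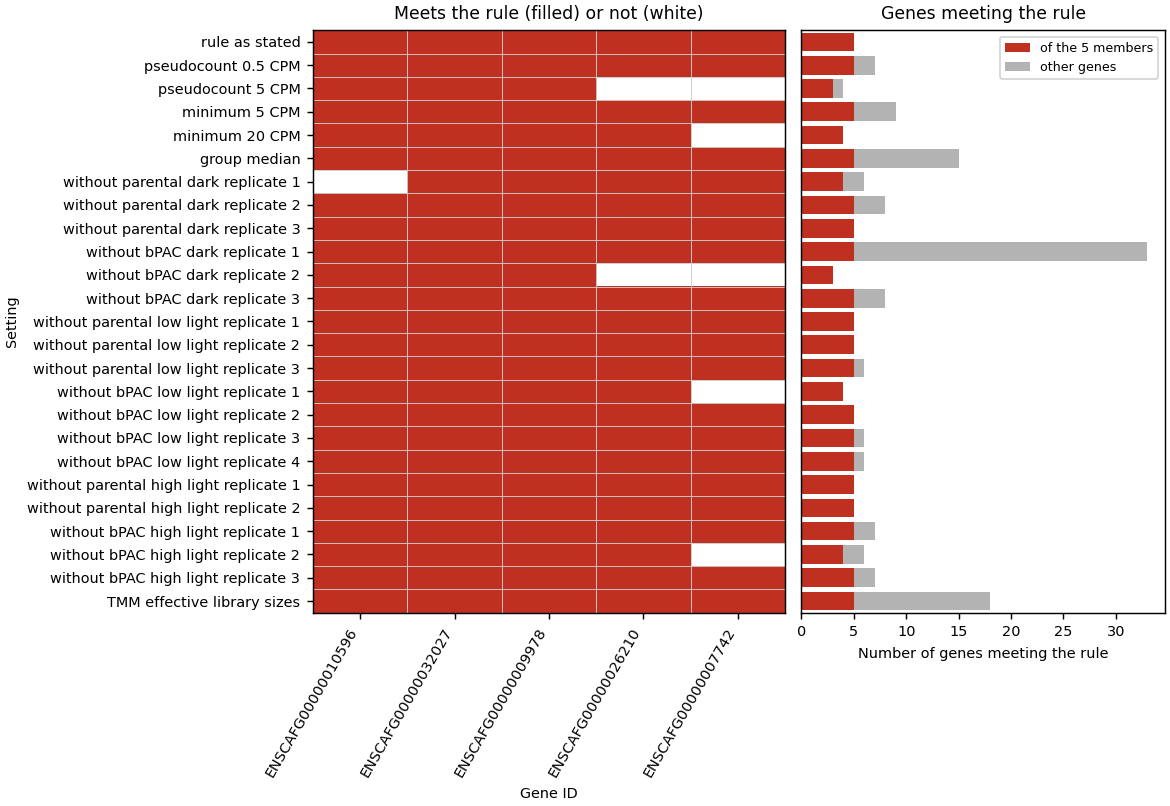
Left, whether each of the 5 genes (columns) met the rule (filled) or not (white) under the rule as stated and 24 alternatives (rows). Right, the number of genes that met it, split into the 5 members and other genes, with 33 genes without bPAC dark replicate 1 and 18 genes under TMM scaling.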

How the data were processed

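RNA from Lexogen's SPLIT kit was made into QuantSeq 3' FWD libraries, read from near the 3' end, per the labels' protocols. Such counts do not scale with transcript length and depend on how the 3' end is annotated. Per the submitters' processing notes the build was CanFam3.1. Neither aligner, counting program nor annotation is given in the sources used here. Raw, as the authors deposited them, the files hold whole-number read counts for 32220 gene IDs and 5 rows without a gene. These rows were left out of library sizes and tests. They held 25.1% to 29.6% of reads (outside genes) and 37.5% to 44.4% (aligned to more than 1 place), so genes with near copies or unannotated ends are uncertain.

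Groups come from the labels, which number no replicates. The numbers used here follow the order of the sample records and pair nothing. Levels are raw CPM. Tests used edgeR 4.0.16 in R 4.3.3 (filterByExpr with a minimum count of 10, TMM, glmQLFit with robust estimation, glmQLFTest) on 6 groups in 1 fit, with Benjamini-Hochberg adjustment over 8530 genes. Only the edgeR test of bPAC high against low light was checked on simulated counts. The other contrasts and the alternatives were not. Alternatives used DESeq2 1.42.0, limma 3.58.1 and sva 3.50.0. Standard errors were taken from each log2 fold change and its F statistic. Within groups, chi-square per degree of freedom was at least 8.43 for all 19 pairs of libraries, so none was treated as a repeat deposit of another. That does not show separate cultures. The members were chosen with earlier results of these data known. The rule for named genes took 2 members per ranking and the 2 genes on each side of the low and of the high light threshold. All 5 members are named, and 1 further gene outside the rule. Planned lists of named genes were not run, since no ID matched a symbol.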

Additional observations from a re-analysis of the deposited data

Results flagged for a closer look

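Reads aligned to more than 1 place, which enter no gene's level, made up 42.8 ± 1.39% of all reads in bPAC high light and 39.03 ± 0.728% in bPAC dark libraries (SD, n = 3 each), with no overlap between these 2 groups. High shares also occurred without bPAC. They ran from 38.9% to 44.2% in parental high light and from 39.7% to 42.0% in parental low light libraries. Among the 5 genes, no low light library of bPAC cells was far enough from the other 3 to meet Dixon's test. The highest gap ratios were 0.609 for ENSCAFG00000009978, where low light 3 lay high, and 0.596 for ENSCAFG00000010596, where low light 4 lay low. For ENSCAFG00000009978 the ratio of low light 4 was 0.274.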

How the results depend on the processing

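No paired analysis was possible because the labels give no replicate numbers, and those used here were assigned. The number of genes meeting the rule, 5 as stated, was 9 with a minimum of 5 CPM, 15 with group medians and 18 with TMM library sizes, and between 3 and 33 on leaving out 1 library. Dropping bPAC dark replicates 1, 2 and 3 in turn gave 33, 3 and 8, dropping parental dark replicate 2 gave 8, and the other 17 alternatives gave 4 to 7. Between high and low light in bPAC cells, 1 member was called by DESeq2, by limma-voom and with no filter (12.02%, 10.5% and 5.71% of all genes). Leaving out 1 library gave 0 or 1 (2.23% to 10.6% of all genes). In the low light interaction DESeq2 called 1 member, no filter gave 3 and 1 surrogate variable 2 (0.152%, 0.457% and 0.0586% of all genes). Leaving out 1 library gave 0 or 1 (0.0117% to 0.0708% of all genes), with 1 without bPAC low light replicate 4. In the high light interaction DESeq2 called 3, no filter gave 4, a mean of at least 5 CPM 2, 1 surrogate variable 3 and only the groups compared 2 (1.196%, 1.98%, 0.753%, 0.492% and 0.613% of all genes). Leaving out 1 library gave 0 to 2 there (0.200% to 0.991% of all genes). The count was 0 without parental high light replicate 1, and 2 without parental dark replicate 1 or bPAC low light replicates 1 or 4. Against the dark, 3 to 5 members were called at low light and 4 or 5 at high light in every alternative. At low light the share of all genes called ran from 3.95% with 1 surrogate variable to 39.98% with a mean of at least 5 CPM. At high light it ran from 11.05% without bPAC high light replicate 2 to 30.3% with only the groups compared. These shares count genes in either direction. Nothing is read from the member counts, since the rule chose the members on these responses. The direction between high and low light in bPAC cells was the same for each member in all 25 alternatives run for it. The causes were not tested. Depth limits ENSCAFG00000007742 and ENSCAFG00000026210 most, with 14 and 15 reads in their shallowest library.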

Other observations

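ENSCAFG00000015708, named after its values were seen, missed the rule by its parental ratio of 0.57 at low light, above the limit of 0.5, and was the gene nearest outside that limit. In cells with bPAC it stood at 117 ± 59.4 CPM in the dark (SD, n = 3), 263 ± 163 CPM in low light (SD, n = 4) and 439 ± 80.1 CPM in high light (SD, n = 3). In parental cells it stood at 6.49 ± 1.94 CPM in the dark and 10.1 ± 7.66 CPM in low light (SD, n = 3 each) and 9.50 ± 5.63 CPM in high light (SD, n = 2). Its bPAC ratios were 1.15 and 1.89. The parental low light libraries ran from 4.94 to 18.9 CPM, so the ratio that kept it out rests on a mean with an SD close to the mean itself. Its low light libraries in bPAC cells ran from 99.9 to 459 CPM, and the lowest of them overlapped the dark range of 69.2 to 184 CPM.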
